A study of Mus musculus with 11 samples.

Results

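The Toll-like receptors are membrane proteins with which microglia and other innate immune cells sense microbial and damaged-cell molecules. The 10 genes described here, Tlr1 to Tlr9 and Tlr13, were taken by symbol from the 36529 genes listed for each sample. The same tables list 12 genes named Tlr with a number, and the other 2, Tlr11 and Tlr12, are given with the partner genes further on. Counts were made in BV2 cells, a mouse microglial line whose labels give the strain C57BL/6. In one experiment, 3 samples received an amino-terminal ApoE4 fragment (nApoE4, residues 1 to 151) at 25 µg/mL for 5 h and 3 untreated samples (ControlA) served as its controls. In a second experiment, 2 samples received the same residues of ApoE3 (nApoE3) at the same dose and time, with 3 untreated samples (ControlB). The fragments differ at a single residue, a cysteine in nApoE3 and an arginine in nApoE4. All 11 samples are of the one cell line, nothing in the labels says that replicates were separate cultures, and p-values therefore measure the spread between these samples, which may be technical. The label descriptions name a saline vehicle and the study's methods name conditioned medium, so what the untreated cells received cannot be stated here.

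Toll-like receptors fall into a surface group and an endosomal group. At the cell surface, Tlr2 pairs with Tlr1 or Tlr6 to bind bacterial lipopeptides, Tlr4 binds lipopolysaccharide with its partners Ly96 and Cd14, and Tlr5 binds flagellin. In endosomes, Tlr3 senses double-stranded RNA, Tlr7 and Tlr8 are receptors of the single-stranded RNA branch, Tlr9 senses unmethylated CpG DNA and Tlr13, present in mice, senses bacterial ribosomal RNA. Most of them signal through the adaptor Myd88, Tlr3 signals through Ticam1, and Tlr4 can use both. The outcome is activation of NF-kappaB and interferon regulatory factors.

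Of 12 microglia and macrophage markers, 8 stood above 1 CPM (counts scaled to a common library total) in all 11 samples. Among them was Csf1r, the receptor for macrophage colony-stimulating factor, at 677 to 814 CPM. Not all the markers were expressed, since Aif1 stood at no more than 0.142 CPM, and Trem2 ranged from 0.372 to 60.5 CPM. Markers that set microglia apart from other macrophages were low or absent, with Cx3cr1 at no more than 0.739 CPM and Tmem119 at 1.25 to 9.15 CPM, and P2ry12 listed at 0 in every sample, although that gene lies inside another gene and reads there may not be assigned. Of the markers of other cell types, the oligodendrocyte gene Mog and the endothelial gene Cldn5 were at 0 in all 11 samples. The summed level of 4 endothelial markers, almost all of it Kdr, was 150 to 177 CPM in ControlA, 62.5 to 71.7 with nApoE4, 64.0 to 66.3 in ControlB and 42.8 to 47.9 with nApoE3. The sum was lower in treated than in untreated samples, as were the receptors that fell, and its part in those results was not tested. Depth was 39732710 to 44162511 counts on genes in the nApoE4 experiment and 55809688 to 69768666 in the nApoE3 experiment. One library stood apart most from its group. ControlA replicate 2 differed from the other ControlA samples by a chi-square of 23.8 and 44.1 per degree of freedom over genes, where those differed from each other by 7.31. Leaving it out raised the genes called in the difference between the fragments from 4331 to 5250. With bulk RNA, fewer cells that express a gene and less of its RNA per cell cannot be told apart.

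The upstream sequences of 5 receptors are shown because these genes, picked after their values were seen, include the largest rises and falls and the one that changed direction between the fragments. They are parts of the 250 bases upstream of a listed promoter start (GRCm38.p6) that lie outside the GENCODE exons of the gene. Bases run 5′ to 3′ on the strand of the gene, with matches to the motifs searched in capitals. The stretches of Tlr3 and Tlr6 lie in introns of the GENCODE gene, since the listed start is inside its span. The others lie before the GENCODE start. The listed start is not always where the RefSeq gene begins, which is at 83841824 for Tlr2, 45411075 for Tlr3 and 64970942 for Tlr6. Part of the Tlr2 stretch, with its marked matches, therefore lies inside the RefSeq gene, as do the stretches of Tlr3 and Tlr6.
Tlr2 (chr3:83841768-83841858, minus strand): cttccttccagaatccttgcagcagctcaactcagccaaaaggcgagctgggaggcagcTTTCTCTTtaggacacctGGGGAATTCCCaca
Tlr3 (chr8:45410381-45410452, minus strand): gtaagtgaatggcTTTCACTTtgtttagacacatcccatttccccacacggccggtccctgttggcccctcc
Tlr6 (chr5:64959167-64959416, minus strand): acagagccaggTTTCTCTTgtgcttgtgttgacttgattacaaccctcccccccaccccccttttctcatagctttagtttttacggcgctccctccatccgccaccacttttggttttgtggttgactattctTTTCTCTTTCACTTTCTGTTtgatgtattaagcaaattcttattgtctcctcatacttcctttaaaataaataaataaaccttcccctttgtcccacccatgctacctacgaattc
Tlr8 (chrX:167264330-167264579, minus strand): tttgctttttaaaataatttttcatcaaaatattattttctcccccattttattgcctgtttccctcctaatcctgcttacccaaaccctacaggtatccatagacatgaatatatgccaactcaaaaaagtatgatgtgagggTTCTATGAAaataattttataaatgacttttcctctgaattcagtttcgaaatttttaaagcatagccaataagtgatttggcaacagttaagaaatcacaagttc
Tlr13 (chrX:106143025-106143203, plus strand): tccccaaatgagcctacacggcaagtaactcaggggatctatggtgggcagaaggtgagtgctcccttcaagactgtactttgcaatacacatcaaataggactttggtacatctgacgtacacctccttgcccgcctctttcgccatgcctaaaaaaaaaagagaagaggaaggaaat
Both strands were searched for the NF-kappaB motif, the interferon regulatory factor core AANNGAAA, its doubled form GAAANNGAAA, the AP-1 motif TGANTCA, the PU.1 motif GAGGAAGT and the GAS motif TTCNNNGAA, and the doubled form contains the core. Over 32841 promoters of the same length, 3.90% held the NF-kappaB motif, 21.3% the core, 2.98% its doubled form, 6.75% AP-1, 2.44% PU.1 and 7.02% GAS. The Tlr2 window held 2 overlapping NF-kappaB matches, the nearest 162 bases from the start, and 2 core matches, 1 of them in exonic bases not shown. Tlr3 had 1 NF-kappaB match, in the exonic bases not shown, and 1 core match 51 bases from the start. The Tlr6 window held 4 core matches, and 3 of them overlap in a run that holds 2 matches to the doubled form, the nearest 100 bases from the start. Tlr8 had 1 GAS match, Tlr9 had 1 AP-1 match, and Tlr5 and Tlr13 held none of the 6 motifs. Tlr1 and Tlr6 each have a second listed promoter, and that of Tlr1 held 1 core and 1 GAS match where the first held PU.1. The second promoter of Tlr6, which is the one at its GENCODE start, held none of the 6 motifs, so the matches shown belong to the inner start alone. Tlr4 and Tlr7 were not among the promoters used.

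Of the 10 receptors, 9 passed the filter on low counts and were tested in each experiment. With nApoE4, 3 were higher than in ControlA (Tlr2, Tlr3 and Tlr7) and 5 lower (Tlr4, Tlr6, Tlr8, Tlr9 and Tlr13), at an adjusted p under 0.05 in edgeR's quasi-likelihood test. Among all 14240 genes tested in that experiment, 28.6% were called higher and 28.6% lower. With nApoE3, 4 were higher than in ControlB (Tlr2, Tlr3, Tlr6 and Tlr7) and 4 lower (Tlr4, Tlr8, Tlr9 and Tlr13), against 33.1% higher and 34.6% lower among 14817 genes. Calls were common in the whole transcriptome, and the 3 of 9 receptors higher with nApoE4 is a share near that of all genes. Log2 fold changes of the 9 ran from -3.63 to 2.67 with nApoE4 and from -4.29 to 2.49 with nApoE3. The median log2 fold change of the tested receptors was -0.43 with nApoE4 and 0.0045 with nApoE3, while the median over all genes was 0.0013 and -0.0026. In both experiments 8 receptors were called, of which 3 were higher with both fragments, 4 lower with both, and 1, Tlr6, in opposite directions. Of all genes called, 49.9% were higher with nApoE4 and 48.9% with nApoE3, and these became 39.9% and 34.6% when libraries were scaled by total counts alone, under which 2 receptors were higher and 5 lower with nApoE4, and 4 higher and 5 lower with nApoE3. With a fold change above 2 also required, 1 receptor was higher and 3 lower with nApoE4, against 10.2% and 7.46% of all genes, and 2 were higher and 1 lower with nApoE3, against 9.6% and 6.57%.

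Tlr2, which carries lipopeptide recognition for both of its pairings, had the highest level per length in the treated cells. It lies at chr3:83836272-83841767 (GRCm38.p6, GENCODE). Levels were 140.4, 161 and 138 CPM in the 3 ControlA samples and 959.8, 893 and 926 CPM in the 3 nApoE4 samples. In the second experiment they were 194, 208 and 239 CPM in ControlB and 1228 and 1189 CPM with nApoE3. Every treated sample stood far above every untreated one. Separation of treated from untreated samples was common over all genes. With nApoE4, 31.5% of 14240 genes lay wholly above ControlA and 32.1% wholly below. With nApoE3, 38.6% of 14817 genes lay wholly above ControlB and 39.0% wholly below. ControlA replicate 2 was the highest of its group, and without it the nApoE4 log2 fold change was 2.73. The rise was 6.35-fold with nApoE4 (log2 2.67 ± 0.081, adjusted p = 5.31e-09) and 5.64-fold with nApoE3 (log2 2.49 ± 0.060, adjusted p = 3.08e-12), where ± gives an approximate standard error.

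Tlr4, the lipopolysaccharide receptor, at chr4:66827584-66930284, moved the other way. ControlA samples had 61.7, 60.2 and 60.9 CPM and nApoE4 samples 21.3, 19.9 and 20.5 CPM. ControlB samples had 64.5, 63.2 and 65.7 CPM and nApoE3 samples 36.5 and 38.1 CPM. The treated samples were lower than all untreated ones with both fragments, and lower with nApoE4 than with nApoE3. The fall was 2.95-fold with nApoE4 (log2 -1.56 ± 0.057, adjusted p = 1.75e-08) and 1.74-fold with nApoE3 (log2 -0.80 ± 0.035, adjusted p = 8.15e-10).

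The partners of Tlr2, Tlr1 and Tlr6, lie 18467 bases apart on chromosome 5, at chr5:64924679-64933563 and chr5:64952031-64960097, and behaved differently. Tlr1 was at 30.1 to 33.3 CPM in the untreated samples and 29.6 to 32.6 CPM in the treated ones. Treated and untreated samples overlapped in both experiments, and no change was detected, with log2 -0.047 (approximate 95% interval -0.15 to 0.062, adjusted p = 0.498) with nApoE4 and 0.0045 (interval -0.070 to 0.079, adjusted p = 0.924) with nApoE3. When libraries were scaled by their total counts alone, Tlr1 was called lower with nApoE3, by a log2 of -0.13, but the median of all genes then stood at -0.13 too. Tlr6 read 33.4, 31.2 and 31.5 CPM in ControlA and 24.6, 22.7 and 23.7 CPM with nApoE4, and 18.7, 20.0 and 20.5 CPM in ControlB and 28.4 and 26.7 CPM with nApoE3. It fell 1.35-fold with nApoE4 (log2 -0.43 ± 0.062, adjusted p = 2.47e-04) and rose 1.40-fold with nApoE3 (log2 0.48 ± 0.049, adjusted p = 2.25e-06), with no overlap of treated and untreated samples either way. The untreated levels of Tlr6 also differed between the experiments, and both treated groups lay between the 2 control groups. Sequence shared with other genes covers 10.6% of the 75-base windows of Tlr1 and 9.25% of those of Tlr6, all of the latter shared with Tlr1. Reads that did not map uniquely were tallied apart from the genes, so reads from those stretches may be missing from the counts. For the ratio of Tlr1 to Tlr6 per kilobase of exon, the values (here ± the SD) were 1.14 ± 0.0463 in ControlA, 1.49 ± 0.0759 with nApoE4, 1.71 ± 0.0841 in ControlB and 1.23 ± 0.00493 with nApoE3.

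Tlr5, the flagellin receptor, was barely expressed. It had 14, 6 and 19 counts in ControlA and 0 in each of the 3 nApoE4 samples. In the second experiment it had 4, 8 and 4 counts in ControlB and 1 and 4 with nApoE3. Against a floor of 3 counts per library, its level with nApoE4 was at least 3.99-fold below the mean of ControlA. That bound does not cover the spread of ControlA, where the mean was 0.290 CPM and replicate 2 stood at 0.134 CPM, nearer the floor of 0.0726 CPM. The counts of Tlr5 were under the filter used for the tests within each experiment. With every gene of at least 1 count kept, edgeR called it lower with nApoE4 (adjusted p = 5.96e-05), which makes 6 receptors lower there, as did DESeq2, and not with nApoE3 (adjusted p = 0.443), where the counts overlapped those of ControlB.

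**Figure D1:**
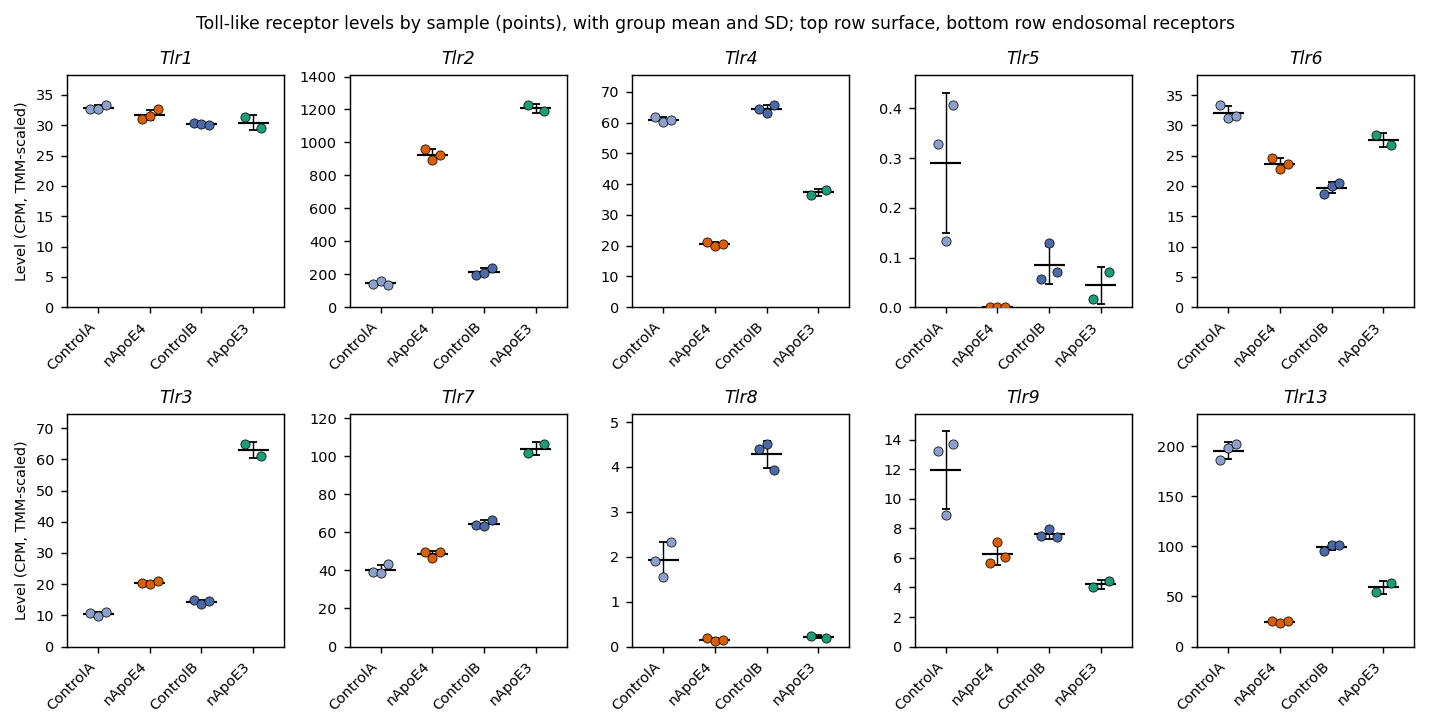
Levels of the 10 receptors in each of the 11 samples, in CPM scaled by TMM (vertical axis, linear, from 0), by group on the horizontal axis. Points are samples, horizontal lines are group means and vertical bars are the SD (n = 3, and n = 2 for nApoE3), with surface receptors in the top row and endosomal receptors in the bottom row. Tlr2, Tlr3 and Tlr7 lie higher and Tlr4, Tlr8, Tlr9 and Tlr13 lower in the treated samples of both experiments, whereas Tlr6 goes down with nApoE4 and up with nApoE3.

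Among the endosomal receptors, Tlr13, at chrX:106143204-106160493, showed the widest gap between the fragments. ControlA samples had 186, 199 and 202 CPM and nApoE4 samples 25.2, 23.9 and 25.2 CPM. ControlB samples had 95.7, 102 and 102 CPM and nApoE3 samples 54.5 and 63.6 CPM. Treated samples were below untreated ones in both experiments, and ControlB lay below ControlA. The fall was 7.86-fold with nApoE4 (log2 -2.98 ± 0.064, adjusted p = 8.14e-10) and 1.70-fold with nApoE3 (log2 -0.76 ± 0.054, adjusted p = 7.57e-08).

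Tlr8, which neighbours Tlr7 on the X chromosome across a gap of 40599 bases, had the steepest fall with both fragments from a low level. Its raw counts were 81, 69 and 109 in ControlA and 8, 5 and 6 with nApoE4, and 311, 279 and 222 in ControlB and 14 and 11 with nApoE3. No treated sample reached an untreated one. In CPM, that was a 12.3-fold fall with nApoE4 (log2 -3.63 ± 0.28, adjusted p = 3.43e-06) and a 19.6-fold fall with nApoE3 (log2 -4.29 ± 0.19, adjusted p = 7.62e-10). Tlr9, the CpG DNA receptor, at chr9:106222598-106226883, fell more modestly. It read 13.2, 8.92 and 13.7 CPM in ControlA, 5.62, 7.10 and 6.05 CPM with nApoE4, 7.48, 7.96 and 7.40 CPM in ControlB and 4.005 and 4.41 CPM with nApoE3. The lowest of its ControlA values was that of replicate 2, the library that stood apart most, and without it the nApoE4 log2 fold change was -1.11. The decreases were 1.90-fold (log2 -0.93 ± 0.17, adjusted p = 0.00101) and 1.82-fold (log2 -0.86 ± 0.086, adjusted p = 2.02e-06) with nApoE4 and nApoE3, respectively.

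Tlr3 and Tlr7, the RNA receptors that rose, both rose more with nApoE3. Tlr3, at chr8:45395665-45411080, read 10.7, 9.79 and 11.1 CPM in ControlA and 20.4, 20.0 and 21.2 CPM with nApoE4. In the second experiment it read 14.8, 13.6 and 14.7 CPM in ControlB and 64.9 and 61.2 CPM with nApoE3. The increase was 1.956-fold with nApoE4 (log2 0.97 ± 0.076, adjusted p = 3.67e-06) and 4.37-fold with nApoE3 (log2 2.13 ± 0.045, adjusted p = 8.78e-13). A noncoding gene on the opposite strand, Gm45542, covers 7.32% of the exon bases of Tlr3 and is not listed in the count tables, and the strand setting of the counting is not given in the sources used here. Tlr7, at chrX:167304929-167330558, read 39.1, 38.8 and 43.4 CPM in ControlA and 49.5, 46.4 and 49.7 CPM with nApoE4. In the second experiment it read 63.8, 63.5 and 66.5 CPM in ControlB and 102 and 106 CPM with nApoE3. All treated samples exceeded the untreated ones of their own experiment, by 1.204-fold with nApoE4 (log2 0.27 ± 0.065, adjusted p = 0.00597) and 1.60-fold with nApoE3 (log2 0.68 ± 0.033, adjusted p = 1.87e-09). The small nApoE4 increase of Tlr7 is the least firm of these calls, since scaling by total counts alone gave an adjusted p of 0.0580.

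**Figure D2:**
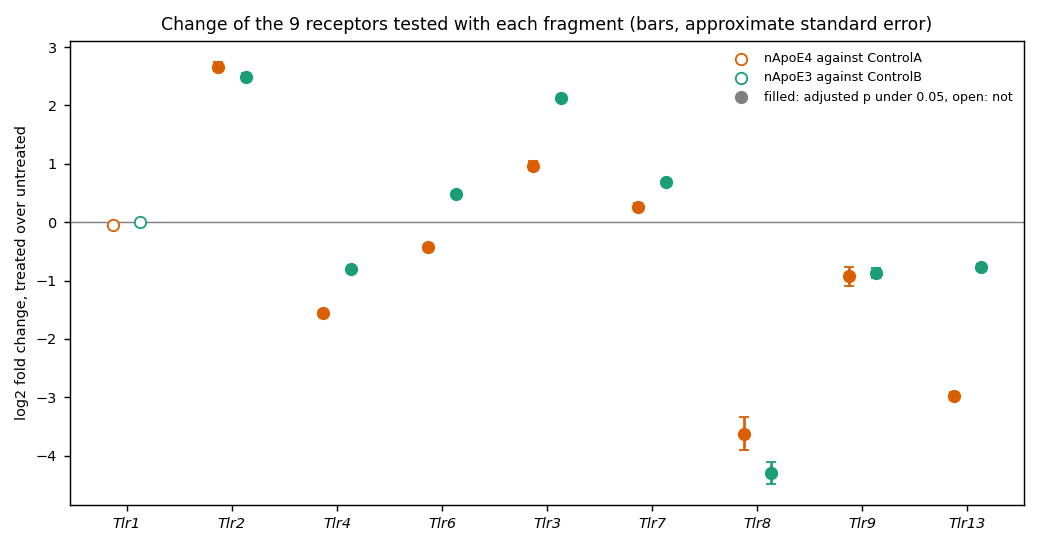
Log2 fold change of the 9 tested receptors over their own untreated samples (vertical axis), with nApoE4 in orange and nApoE3 in green, and bars for the approximate standard error. Filled points have an adjusted p under 0.05. The fragments lie closest together for Tlr1, Tlr9 and Tlr2, on opposite sides of 0 for Tlr6, and farthest apart for Tlr13.

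Whether the 2 changes differed was tested over all 11 samples as the nApoE4 change minus the nApoE3 change. Of the 10 receptors, 6 were called lower and 0 higher, against 13.9% lower and 14.4% higher among 15287 genes. The differences were -2.22 ± 0.090 log2 for Tlr13 (adjusted p = 7.58e-09) and -1.17 ± 0.087 for Tlr3 (adjusted p = 8.66e-07). Tlr6 differed by -0.92 (adjusted p = 3.17e-06), Tlr4 by -0.78 (adjusted p = 2.08e-06) and Tlr7 by -0.42 (adjusted p = 0.00128). Tlr5 was also called (adjusted p = 0.0310), but with all 3 nApoE4 samples at 0 counts its fitted value is no measure of size and the call was absent in 11 of 18 alternatives. It missed the threshold in 7, among them the removal of any 1 nApoE4 sample, of ControlB replicate 1 or 3 or of nApoE3 replicate 2, and in the other 4, among them the removal of ControlA replicate 1 or 3, no adjusted p was given for Tlr5. For Tlr2 the difference was 0.16 (approximate 95% interval -0.063 to 0.38, adjusted p = 0.335), for Tlr9 -0.078 (interval -0.50 to 0.35, adjusted p = 0.831), for Tlr1 -0.063 (interval -0.19 to 0.063, adjusted p = 0.515) and for Tlr8 0.65 (interval -0.13 to 1.42, adjusted p = 0.302). Without ControlA replicate 2, the difference was 0.24 for Tlr2 (adjusted p = 0.0605) and -0.25 for Tlr9 (adjusted p = 0.178). With a fold change above 2 also required, 3 were lower (Tlr13, Tlr3 and Tlr5) and 0 higher, against 3.35% and 2.58% of genes. Each fragment was given in an experiment of its own, and what belongs to the fragment and what to the experiment cannot be told apart in these differences.

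The untreated samples show how far the receptors differed between the experiments. ControlB had 4 receptors higher and 4 lower than ControlA, against 34.4% and 34.9% of 14249 genes. With a fold change above 2 also required, 1 was higher and 0 lower, against 5.4% and 12.5%. Tlr8 was 2.20-fold higher (log2 1.14 ± 0.16, adjusted p = 2.79e-04), Tlr7 1.58-fold (log2 0.66), Tlr2 1.44-fold (log2 0.53) and Tlr3 1.35-fold (log2 0.43). Tlr13 was 1.98-fold lower (log2 -0.99 ± 0.050, adjusted p = 1.55e-06), Tlr6 1.64-fold (log2 -0.72) and Tlr9 1.59-fold (log2 -0.67). Tlr1 was called lower by a log2 of only -0.14 (adjusted p = 0.0158), a call that was lost in 6 alternatives, among them each removal of 1 ControlB sample. Without ControlA replicate 2 the log2 differences were 0.60 for Tlr2 and -0.84 for Tlr9. Tlr4, alone among those tested, was not called, at log2 0.065 (approximate 95% interval -0.017 to 0.15, adjusted p = 0.195).

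Levels of different receptors can be compared only per length, and were divided by the kilobases of each gene's exons. In ControlA, Tlr2 (48.6) and Tlr13 (45.5) led and overlapped between samples, followed by Tlr4 (10.97), Tlr7 (9.91), Tlr1 (9.82) and Tlr6 (8.60), in CPM per kilobase. Tlr7 and Tlr1 also overlapped there. Tlr9, Tlr3, Tlr8 and Tlr5 made up the low end, at 3.44, 2.02, 0.537 and 0.0605 CPM per kilobase. In ControlB the order was Tlr2 (70.9), Tlr13 (23.2), Tlr7 (15.8), Tlr4 (11.6), Tlr1 (9.03), Tlr6 (5.29), Tlr3 (2.76), Tlr9 (2.19), Tlr8 (1.19) and Tlr5 (0.0179), with no overlap between neighbours. With nApoE4, Tlr2 (307) was followed far below by Tlr7 (11.9), Tlr1 (9.48), Tlr6 (6.35), Tlr13 (5.76), Tlr3 (3.94), Tlr4 (3.70), Tlr9 (1.80), Tlr8 (0.0426) and Tlr5 at 0. With nApoE3 the order was Tlr2 (401), Tlr7 (25.5), Tlr13 (13.7), Tlr3 (12.1), Tlr1 (9.10), Tlr6 (7.40), Tlr4 (6.72), Tlr9 (1.21), Tlr8 (0.0607) and Tlr5 (0.0092). Neighbours overlapped in neither treated group. By coding length some receptors changed places. In ControlA, Tlr13 came ahead of Tlr2, Tlr1 and Tlr6 ahead of Tlr7, and Tlr3 ahead of Tlr9. In ControlB Tlr4 came ahead of Tlr7, and with nApoE4 it came ahead of Tlr3. With nApoE3, Tlr3 came ahead of Tlr13, and Tlr4 ahead of Tlr1 and Tlr6.

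Treatment left Tlr2 as most of the receptor RNA. Its share of the summed level per kilobase was 34.8 ± 2.35% in ControlA and 87.7 ± 0.262% with nApoE4, and 49.8 ± 2.21% in ControlB and 84.1 ± 0.555% with nApoE3. Endosomal receptors went from 44.0 ± 1.91% to 6.69 ± 0.154% in the first experiment and from 31.9 ± 1.34% to 11.03 ± 0.572% in the second. Tlr2 itself is in the denominator of these shares. The summed endosomal level was 61.4 ± 2.65 CPM per kilobase in ControlA and 23.4 ± 0.543 with nApoE4, and 45.1 ± 0.958 in ControlB and 52.6 ± 1.87 with nApoE3. Within the endosomal group, Tlr13 made up 74.1 ± 1.87% in ControlA, 24.6 ± 0.280% with nApoE4, 51.3 ± 0.854% in ControlB and 26.1 ± 1.90% with nApoE3. Tlr7 took the leading place in both treated groups, at 50.7 ± 0.857% with nApoE4 and 48.4 ± 0.169% with nApoE3, from 16.1 ± 0.419% and 35.1 ± 0.657%. The ratio of Tlr2 to Tlr4 was 4.43 ± 0.433 in ControlA, 83.0 ± 0.256 with nApoE4, 6.10 ± 0.576 in ControlB and 59.7 ± 3.19 with nApoE3. Its size depends on the length used. By coding length it was 2.77 in ControlA, 51.9 with nApoE4, 3.81 in ControlB and 37.3 with nApoE3. These shares and ratios are descriptions within each sample, with ± the SD.

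**Figure D3:**
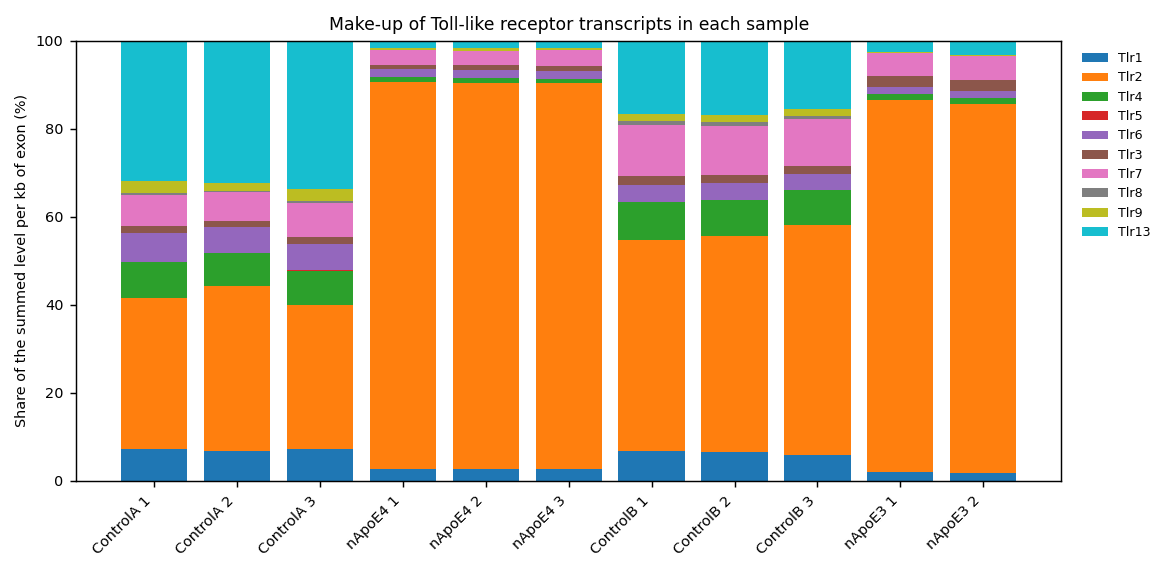
Share of each receptor in the summed level per kilobase of exon of the 10 receptors (vertical axis, percent), 1 stacked bar for each of the 11 samples. Tlr2 takes 32.8 to 52.3% in the 6 untreated samples and 83.7 to 88.0% in the 5 treated samples, and Tlr13 shrinks in both treated groups.

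The remaining receptors were at the edge of detection. Tlr12 had 13 to 19 counts in ControlA, 3 to 7 with nApoE4, 11 in each ControlB sample, and 1 and 4 with nApoE3, and was called lower with both fragments (log2 -1.54 ± 0.37, adjusted p = 0.00566 and -1.96 ± 0.62, adjusted p = 0.0140). Tlr11 had no more than 1 count in any sample and could not be tested. Both sense protozoan profilin.

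Genes that work with the receptors were read from 8 lists of 73 genes in all. Among the 71 tested in each experiment, 35 were higher and 20 lower with nApoE4, and 42 higher and 23 lower with nApoE3. Among all genes, 28.6% were called higher and 28.6% lower with nApoE4, and 33.1% and 34.6% with nApoE3. The partner genes called lower are thus a share near that of all genes with both fragments. The same percentages are the background of each list below. Of the 7 co-receptor and ligand-binding genes, 2 rose and 4 fell with nApoE4, and 3 rose and 2 fell with nApoE3. Cd14, which hands lipopolysaccharide to Tlr4, rose by log2 2.75 with nApoE4 (adjusted p = 3.88e-08) and 3.53 with nApoE3 (adjusted p = 1.08e-15). Ly96, the Tlr4 co-receptor, rose by 0.35 (adjusted p = 0.00671) and 0.72 (adjusted p = 1.92e-07), so that both Tlr4 partners were higher where Tlr4 was lower. Cd36, a scavenger receptor that assists Tlr2, was -0.91 with nApoE4 (adjusted p = 6.57e-04) and -0.16 with nApoE3 (adjusted p = 0.476).

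Chaperones and trafficking genes were more often called lower than higher. Of 9, 5 fell and 1 rose with nApoE4, and 6 fell and 2 rose with nApoE3, with a median log2 of -0.47 in both. Rab7b, a late-endosomal GTPase, changed by log2 -2.09 with nApoE4 (adjusted p = 3.08e-09) and -0.66 with nApoE3 (adjusted p = 4.84e-08), both decreases, and the difference between fragments was -1.45 (adjusted p = 2.55e-08). Cnpy4 was -0.84 and -0.80 (adjusted p = 1.31e-05 and 5.88e-09), and Scarb2, a lysosomal membrane protein, -0.47 and -0.72 (adjusted p = 2.83e-04 and 8.62e-11). The endosomal proteases and nucleases that process receptors and their ligands split, with 3 of 10 higher and 2 lower with nApoE4, and 6 higher and 3 lower with nApoE3. Of all genes, 28.6% were higher and 28.6% lower with nApoE4, and 33.1% and 34.6% with nApoE3. The RNases Rnaset2a and Rnaset2b are near-identical copies, and reads that fit both may be missing from the counts. They rose by 1.02 and 1.12 with nApoE4 (adjusted p = 2.40e-06 and 1.26e-05) and 0.26 and 0.76 with nApoE3 (adjusted p = 8.79e-04 and 0.00846). Pld4, a nuclease of the endosome, was at 0.525 CPM in ControlA and 1.28 CPM with nApoE4 (log2 1.30 ± 0.45, adjusted p = 0.0338), and 0.210 CPM in ControlB and 0.105 CPM with nApoE3 (log2 -1.01 ± 0.44, adjusted p = 0.0607).

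Below the receptors, the adaptor list had 4 higher and 1 lower of 6 tested with nApoE4, and 3 higher and 3 lower of 7 with nApoE3. Ticam1, the adaptor of Tlr3, rose by log2 1.28 and 1.36 (adjusted p = 9.01e-08 and 3.46e-11). Pik3ap1, a link to phosphoinositide 3-kinase, rose by 0.35 and 1.27 (adjusted p = 7.99e-04 and 1.65e-13), and Sarm1, a negative adaptor, was -0.45 and -1.48 (adjusted p = 0.198 and 0.0164). Of 15 kinases and ligases, 10 rose and 2 fell with nApoE4 and 11 rose and 3 fell with nApoE3. Ikbke, a kinase of the interferon arm, rose by 4.43 and 3.01 (adjusted p = 1.46e-09 and 2.45e-14), Irak2 by 1.36 and 1.84 (adjusted p = 2.04e-07 and 6.76e-13), and Map3k8 by 1.16 and 1.51 (adjusted p = 6.23e-07 and 9.05e-10). The 11 transcription factors had 6 higher and 3 lower with nApoE4, and 8 higher and 3 lower with nApoE3. Irf7, the interferon regulator downstream of Tlr7 and Tlr9, rose by 3.89 and 5.33 (adjusted p = 1.15e-09 and 2.03e-13), and the NF-kappaB subunits Relb and Nfkb2 by 3.30 and 2.60 with nApoE4 (adjusted p = 4.57e-10 and 1.15e-09) and 1.92 and 2.36 with nApoE3 (adjusted p = 2.10e-11 and 5.38e-13). Among 12 negative regulators, 9 rose and 2 fell with nApoE4, and 9 rose and 2 fell of 11 tested with nApoE3. The ubiquitin-editing enzyme Tnfaip3 rose by 3.71 and 4.07 (adjusted p = 4.23e-10 and 2.23e-13), the NF-kappaB inhibitor Nfkbia by 3.41 and 2.70 (adjusted p = 1.14e-09 and 1.57e-12), and the inactive kinase Irak3 by 2.75 and 2.89 (adjusted p = 3.57e-09 and 3.58e-13).

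**Figure D4:**
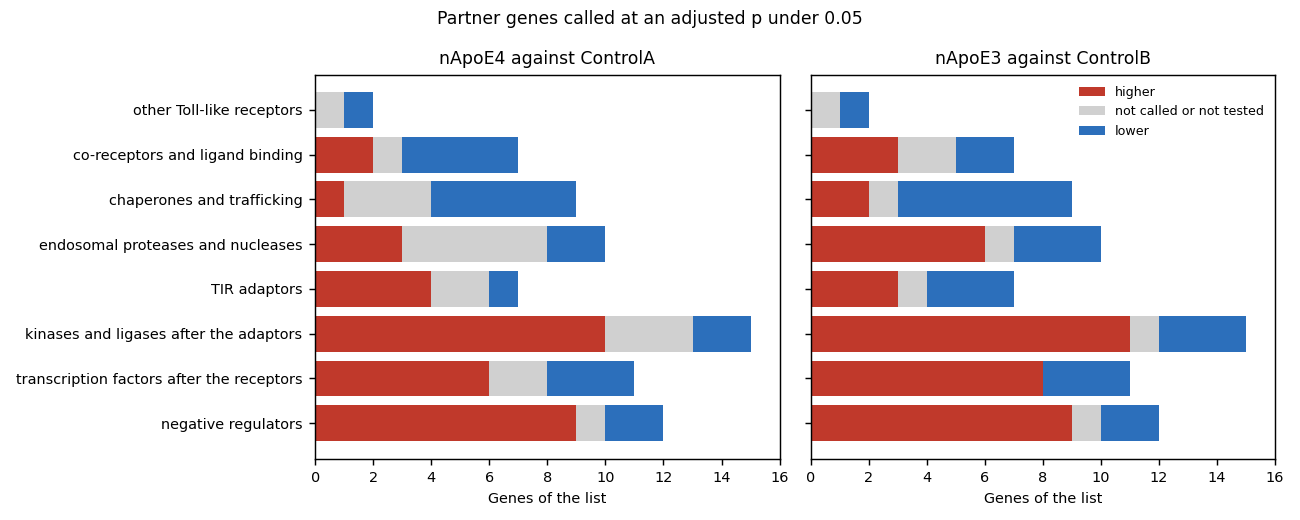
Number of genes in each of the 8 lists of receptor partners (horizontal axis) that were called higher (red), called lower (blue), or neither, including genes not tested (grey), with nApoE4 on the left and nApoE3 on the right. Kinases, transcription factors and negative regulators are mostly red with both fragments, and the chaperone list is mostly blue.

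Genes whose levels followed 7 of the receptors most closely over the 11 samples were named by the highest Pearson correlation of log2 CPM among 15286 other genes. These correlations largely follow the 4 groups, which the samples share along with their library preparation, and are descriptions. For Tlr2 they were Nadk, Nfe2l2 and Gpr84 (r = 0.997 for each) and for Tlr6 Slc2a1, Hilpda and Zfand2a (0.987, 0.970 and 0.968). Tlr3 was followed by Aftph, Serpina3f and Mov10 (0.997, 0.994 and 0.992) and Tlr7 by Mtrr, Smc5 and Morc3 (0.997, 0.994 and 0.993). The nearest for Tlr8 were Sirt3, Prkag2 and 2210008F06Rik (0.996, 0.996 and 0.994), for Tlr9 Cic, Slc6a17 and Myo9b (0.989, 0.988 and 0.984), and for Tlr13 Rara, Ehd4 and Nr1d1 (0.991 for each).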

How the data were processed

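RNA from BV2 cells in 4 groups (3, 3, 3 and 2 samples) was sequenced as 75-base single reads. The authors trimmed reads with Trim Galore 0.5.0, mapped them to GRCm38.p6 with HISAT2 2.1.0 and deposited raw counts per gene from HTSeq 0.11.0, by symbol, with no normalization. The 10 receptors, the partner lists and the tests were chosen with earlier results of these data known. Members were named in full. Of the genes in a list that were called in either experiment, the 3 that changed most were named. Tallies of reads on no gene stayed out of library sizes (76.0 to 77.7% of tallied reads fell on genes). In R 4.3.3, edgeR 4.0.16 (filterByExpr, TMM, quasi-likelihood F test, Benjamini-Hochberg adjustment over all genes, adjusted p under 0.05) compared each fragment with its own controls, the controls with each other, and the changes as an interaction over 11 samples. Standard errors are the log2 fold change over the square root of F. Levels are TMM-scaled CPM, divided by GENCODE exon length between genes. The genes most like Tlr4 are not reported here. The code was tested on simulated data. Alternatives were DESeq2 1.42.0, other scalings and filters, thinning, a replicate block and leaving out each sample. Counting error is small at this depth except for Tlr5, Tlr8, Tlr11 and Tlr12. A floor of 3 counts covers counting error only, and intervals cover the spread between samples.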

Additional observations from a re-analysis of the deposited data

Results flagged for a closer look

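The change with nApoE4 differed from the change with nApoE3 for 6 receptors by edgeR's interaction test, and these are the results set apart here. All differences are the nApoE4 change minus the nApoE3 change on the log2 scale. Tlr13 differed by -2.22 and Tlr3 by -1.17. Tlr6 differed by -0.92, since it fell with one fragment and rose with the other, Tlr4 by -0.78 and Tlr7 by -0.42. Tlr5 differed by a fitted -5.98, which rests on 0 counts in all 3 nApoE4 samples and 1 to 8 counts in the nApoE3 experiment, and is not a measure of size. The 2 fragments were tested in separate experiments whose untreated samples already differed for 8 of 9 receptors tested (69.3% of 14249 genes differed, and the call of Tlr1 was lost in 6 of 14 alternatives), so that effects of the fragment and of the experiment cannot be told apart. Groups of 2 or 3 samples are too small for the test of a single outlying value. Over all genes, however, ControlA replicate 2 stood apart from its group, and nApoE4 replicate 2 did so to a lesser degree.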

How the results depend on the processing

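Over the alternatives run, 522 of 543 comparisons of single receptors kept their direction and their side of the threshold. Receptors that stayed uncalled are among those kept. Settings that gave a receptor no adjusted p are not among the 543. With at least 10 counts required in every sample, Tlr8 had no test with nApoE4, and 4 receptors were lower there. With a fold change above 2 added to the call, 1 receptor was higher and 3 lower with nApoE4, 2 higher and 1 lower with nApoE3, 3 lower in the difference, and 1 higher and 0 lower in ControlB; partner genes were then 21 higher and 6 lower of 71 with nApoE4 (all genes, 10.2% and 7.46%) and 20 higher and 4 lower of 71 with nApoE3 (9.6% and 6.57%). The uncalled Tlr1 change with nApoE3 turned negative under DESeq2 (-0.00028), with all genes of at least 1 count (-0.0049), with counts thinned to the smallest library (-0.018) and with total counts alone (-0.13), and ranged from -0.035 to 0.043 when 1 sample was left out. The uncalled Tlr9 difference ranged from -0.25 to 0.032 over those removals. With coding in place of exon length, the Tlr2 share was 31.3% in ControlA, 86.0% with nApoE4, 45.7% in ControlB and 81.7% with nApoE3, and the endosomal share 7.28% with nApoE4 and 12.3% with nApoE3. Scaling by total counts alone, chosen after seeing the data, made 39.9% of the genes called with nApoE4 higher in place of 49.9%, and 34.6% with nApoE3 in place of 48.9%. The Tlr5 difference lost its call with a replicate block, without each nApoE4 sample in turn, without ControlB replicate 1 or 3 and without nApoE3 replicate 2. It had no adjusted p under DESeq2, with at least 10 counts in every sample, or without ControlA replicate 1 or 3. Same-numbered samples did not deviate together (correlations of -0.039, -0.17 and -0.062 in the nApoE4 experiment). With the replicate block 3 receptors were higher and 5 lower with nApoE4, 4 higher and 4 lower with nApoE3, and 0 higher and 5 lower in the difference, while the genes called in the difference fell from 4331 to 2307. The coding length of RefSeq proteins was not run.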
